A study of Mus musculus with 8 samples.

Results

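Gdf15 and Fgf21 encode secreted proteins that leave cells with failing mitochondria and act on other tissues, and both were followed here by gene symbol in RNA of mouse hearts labelled as Tefm knockouts and of controls. The symbols matched 2 of the 49584 features counted (Gdf15, ENSMUSG00000038508.7; Fgf21, ENSMUSG00000030827.5). TEFM keeps the mitochondrial RNA polymerase elongating, and the series asked what its loss does to mitochondrial gene expression. The 4 control mice carried loxP-flanked Tefm alleles (titled L/L, genotype given as Tefm +/+). The 4 knockout mice (L/L, cre; Tefm -/-) carried the same alleles with cre under the muscle creatinine kinase promoter, spelled as in the labels, a promoter of striated muscle. Other cells of the heart keep the gene. Age and sex, not given in the sources used here, could not be compared. RNA was taken from crude heart mitochondria, a preparation that also carries nuclear transcripts of the cytosol.

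GDF15 is a distant member of the TGF-beta family. It is made as a precursor that proprotein convertases such as furin cleave, and it acts through GFRAL with the kinase RET, a receptor pair of hindbrain neurons that lowers food intake. FGF21 is an endocrine fibroblast growth factor. It needs the co-receptor beta-klotho (Klb) beside an FGF receptor, mainly FGFR1c, and signals through ERK. In muscle and heart with respiratory chain defects both genes are known targets of the integrated stress response, in which kinases phosphorylate eIF2 and the transcription factor ATF4 is translated. A circulating protein and its tissue mRNA need not change together, and only RNA was measured here.

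Library totals were 21108165 to 27403415 counts. RNA of mitochondrial DNA (mtDNA) made up 72.3% to 74.0% of the counts in controls, 59.3% in knockout replicate 1 and 38.7% to 44.2% in the other knockouts. The count over the whole Tefm gene (106 to 144 in controls, 166 to 245 in knockouts; log2 fold change 0.14, SE 0.11, edgeR adjusted p = 0.324) does not show a loss; which exon was deleted is not known here and counts per exon were not analysed, so the labels were not checked by it. Levels are library-scaled counts (CPM), with scaling by the trimmed mean of M-values (TMM), which places nuclear genes on a common level. Unscaled library totals would raise the median log2 fold change of all genes by 0.99. A gene is called when edgeR's quasi-likelihood test gives a Benjamini-Hochberg adjusted p under 0.05 over the 17891 genes tested. By that rule 26.1% of them were higher and 23.9% lower in knockouts. For 23.9% of them every knockout library lay above every control, and for 21.5% every knockout library lay below every control.

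Both genes lie on minus strands in GRCm38, and no other annotated gene overlaps either of them. Gdf15 lies on chromosome 8 from 70629393 to 70632456, with a transcript of 3 exons from that start and 1 of 2 exons from a second start at 70632095. Fgf21 lies on chromosome 7 from 45613886 to 45615490 and has 3 exons. The 250 bases upstream of each gene start are shown because both genes are described as ATF4 targets. Capitals mark the letters TGATGCA or the longer TGATGNAAT, read on either strand. The longer motif is the core of the C/EBP-ATF response element, a composite site bound by ATF4 with a C/EBP partner, and it overlaps the shorter one, which was chosen after these sequences had been seen.
Gdf15, chr8:70632457-70632706, minus strand, GRCm38.p6 (RefSeq): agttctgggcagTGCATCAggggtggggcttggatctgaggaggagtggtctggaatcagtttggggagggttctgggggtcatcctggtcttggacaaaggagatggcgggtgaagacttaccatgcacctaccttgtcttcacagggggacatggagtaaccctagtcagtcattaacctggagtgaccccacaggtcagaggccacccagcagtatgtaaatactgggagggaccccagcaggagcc
Fgf21, chr7:45615491-45615740, minus strand, GRCm38.p6 (RefSeq): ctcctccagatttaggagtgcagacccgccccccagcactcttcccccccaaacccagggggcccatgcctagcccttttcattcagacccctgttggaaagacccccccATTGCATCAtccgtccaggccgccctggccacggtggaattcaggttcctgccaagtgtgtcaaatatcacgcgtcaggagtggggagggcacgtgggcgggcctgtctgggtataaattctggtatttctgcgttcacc

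The Fgf21 promoter held ATTGCATCA, the reverse complement of TGATGNAAT, with its first base 140 bases upstream of the gene start. The Gdf15 promoter held TGCATCA, the reverse complement of TGATGCA, 238 bases upstream, and did not hold the longer motif. Of 32817 RefSeq promoter windows of 300 bases, 0.966% held TGATGNAAT and 3.15% held TGATGCA on either strand. Among 20 stress response target genes with a window, TGATGNAAT was in 1 and TGATGCA in 4. Counted by gene in the same way, 1.09% and 3.64% of 26994 genes held them. The Fgf21 promoter also held CACGTG, the E-box core, 50 bases upstream, and TATAAA, the TATA box, 28 bases upstream. CACGTG also lay 83 bases upstream of the second Gdf15 start. These motifs were in 7.15% and 13.6% of all windows. Letters that match are a description and not a measured binding site.

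Gdf15 rose from a few counts per library to levels among the highest of nuclear genes in most knockouts. Control replicates 1 to 4 held 7, 8, 11 and 4 Gdf15 counts, and knockout replicates 1 to 4 held 528, 3229, 3897 and 2945. All 4 knockouts lay far above all controls, and replicate 1 was the lowest of them. The mean level was 0.399 ± 0.168 CPM in controls and 79.7 ± 40.7 CPM in knockouts (SD, n = 4 each). In log2 terms the change was 7.65 (SE 0.59, 95% interval 6.37 to 8.92, edgeR adjusted p = 1.58e-07), a 200.2-fold rise. Of all genes tested, 9 had a larger fitted rise. Scaled by library totals alone the value was 8.73, or 424-fold.

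Fgf21 was almost undetected in controls and present in every knockout. Control replicates 1, 2 and 4 held 0 Fgf21 counts and replicate 3 held 2, while knockout replicates 1 to 4 held 53, 114, 171 and 116. The knockout range thus lay wholly above the controls, although at a much lower level than that of Gdf15. A count of 0 allowed up to 0.150 to 0.158 CPM in those 3 control libraries, which at 3 counts covers counting error alone. The mean level was 0.0277 ± 0.0553 CPM in controls and 3.48 ± 1.20 CPM in knockouts (SD, n = 4 each). Pooled over libraries the ratio was 136, with a 95% counting interval of 37.5 to 1127. In log2 terms the change was 6.82 (SE 0.58, 95% interval 5.58 to 8.05, edgeR adjusted p = 3.7e-07), exceeded by 18 genes, and with library totals it was 7.75, or 216-fold. Both control counts lay in replicate 3, and without it the ratio becomes a lower bound, at least 69.2-fold, while the fitted value of 9.54 is then no measure of size. The authors' deposited table gives log2 fold changes of 5.85 (SE 0.47, adjusted p = 2.61e-33) for Gdf15 and 4.93 (SE 0.47, adjusted p = 1.51e-24) for Fgf21. Both are smaller than those fitted here, and DESeq2 as run here gave 7.64 for Gdf15 and 7.05 for Fgf21. The settings behind that table, such as any shrinkage of fold changes, were not stated in the labels. The deposited values are thus not read as a smaller measured effect.

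**Figure D1:**
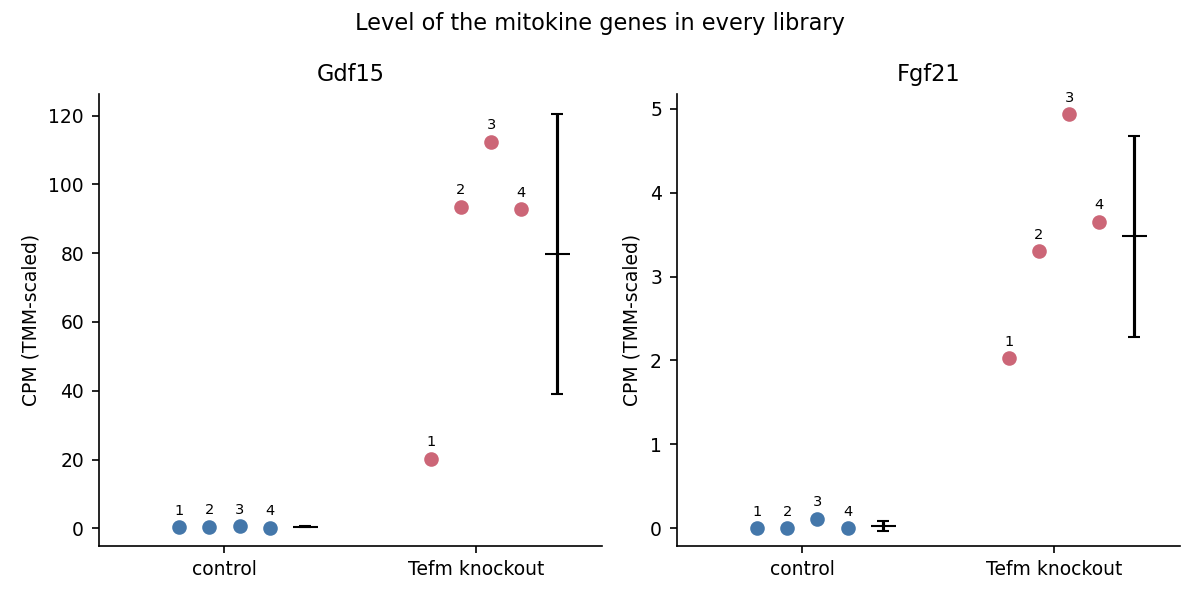
Level of Gdf15 (left) and Fgf21 (right) in CPM on linear axes, 1 point per library with its replicate number, and the mean with SD (n = 4) beside each group. Gdf15 stands at 20.2 CPM in knockout replicate 1 and at 92.8 to 112 CPM in the others, and Fgf21 at 2.03 to 4.93 CPM in knockouts against 0 to 0.111 CPM in controls.

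Per length of transcript the genes changed place among the nuclear genes tested. These places are within RNA of crude mitochondria, and places in whole heart were not measured. On the RPKM scale, CPM per kilobase of exon, Gdf15 ranked 15415 to 17246 of 17830 genes in controls. In knockout replicates 2 to 4 it ranked 371, 328 and 377, and in replicate 1 it ranked 1746. Its level exceeded that of 3.28% to 13.5% of nuclear genes in controls, of 97.9% to 98.2% in 3 knockouts and of 90.2% in replicate 1. Fgf21 ranked 7284, 4958, 3553 and 4577 in knockout replicates 1 to 4, exceeding 59.1% to 80.1% of them. Mean levels in knockouts were 43.0 ± 22.0 RPKM for Gdf15 and 3.66 ± 1.26 RPKM for Fgf21 (SD, n = 4 each). Within a knockout library the Gdf15 level per length was 5.12, 14.5, 11.7 and 13.0 times that of Fgf21. The union of the exons of both Gdf15 transcripts, 1852 bases, was used as its length. With the 1380 bases of the 3-exon transcript, chosen as an alternative after seeing the data, the mean ratio was 14.9 ± 5.58 in place of 11.1 ± 4.15 (SD, n = 4).

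A difference in factor of change between the 2 genes did not pass the test. With 0.5 added to each count, the log2 ratio of Gdf15 to Fgf21 was 3.91, 4.09, 2.20 and 3.17 in controls 1 to 4 and 3.304, 4.82, 4.51 and 4.66 in knockouts 1 to 4, so that the groups overlapped. The difference of knockouts minus controls was 0.98 (two-sided exact permutation test, p = 0.143; 0.0286 is the smallest p that 70 relabelings of 4 against 4 allow). It depends on the added count, since 3 controls held no Fgf21 count: it was 2.36 (exact permutation test, p = 0.0286) with 2 added and -0.73 (p = 0.514) with 0.1 added.

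The knockout libraries differed in the size of the change. With 1 library per mouse, heart and preparation cannot be told apart. In CPM, Gdf15 in knockout replicate 1 was 33.2 times the highest control, and the mean of the other knockouts was 4.93 times that of replicate 1. For Fgf21 these ratios were 18.3 and 1.96. On the scale of log2 CPM minus the control mean, Gdf15 changed by 5.48 in replicate 1 and by 7.69, 7.95 and 7.68 in replicates 2 to 4. Fgf21 changed by 4.42, 5.11, 5.68 and 5.25. Replicate 3 was thus the highest for both genes and replicate 1 the lowest. The median change of 23 stress response targets was also lowest in replicate 1, at 2.78, against 3.23 to 3.44 in the others. A median over many genes varies less than 1 gene does, so its spread is not set against that of Gdf15 or Fgf21. Replicate 1 also had the highest mtDNA share of the knockouts. The part of that difference in these values was not tested. Without replicate 1 the log2 fold change of Gdf15 was 7.96 (SE 0.15) and that of Fgf21 6.99 (SE 0.46), and the SE of Gdf15 fell from 0.59.

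**Figure D2:**
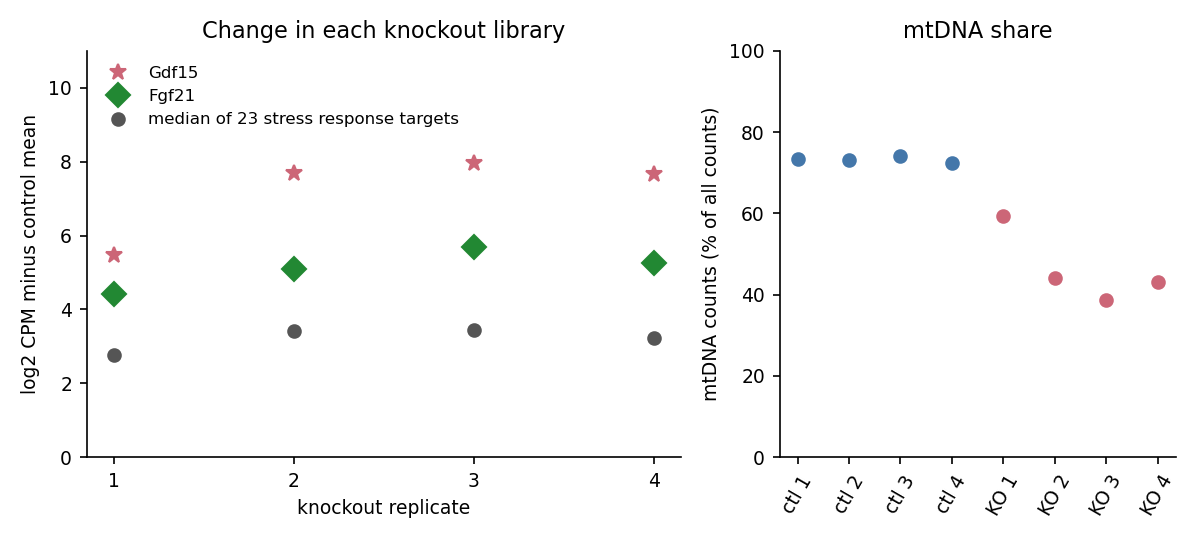
Left, log2 CPM minus the mean of controls in each knockout library for Gdf15 (stars), Fgf21 (diamonds) and the median of 23 stress response targets (circles). Right, percent of counts from mtDNA in each control (ctl) and knockout (KO) library. Knockout replicate 1 has the smallest change of both genes and an mtDNA share of 59.3%.

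Cell type markers were read beside these rises, since macrophages, hepatocytes and fat also make these proteins. In RNA of crude mitochondria fewer cells of a type cannot be told apart from less RNA per cell. Nor can either be told apart from a change in which nuclear transcripts the preparation carried. The heart's defining markers were present: summed over 8 cardiomyocyte genes, among them Myh6 and Tnnt2, the level was 18119 to 19222 CPM in controls and 7923 to 12659 CPM in knockouts. Of these 8 genes 7 fell and none rose, but with library totals 3 fell and 3 rose. Over all genes tested 26.1% rose and 23.9% fell, and no marker list was tested against these shares. None of 7 macrophage markers rose and 2 fell, with summed levels of 77.4 to 106.7 CPM in controls and 59.6 to 85.7 CPM in knockouts; without knockout replicate 2 the number that fell was 4. Of 6 fibroblast markers 2 rose and the other 4 were not called, with summed levels of 223 to 235 CPM in controls and 202 to 354 CPM in knockouts. The number of fibroblast markers that rose was 5 without knockout replicate 1, 4 without the low-count filter, and 1 without control replicate 1 or 3 or knockout replicate 3 or 4. Of 6 endothelial markers 1 rose and 2 fell, and of 6 mural cell markers 1 rose and 1 fell. Leaving out 1 library moved these counts to between 1 and 2: 2 endothelial markers rose without knockout replicate 2, and 1 fell without it or without control replicate 1, 3 or 4. Of mural markers 2 rose without control replicate 3 or knockout replicate 1 or 2, and 2 fell without knockout replicate 1 or 4. The 6 adipocyte markers were at most 0.474 CPM in sum in any library. Of 6 hepatocyte markers 1 was tested and rose (Ahsg, 2.50 CPM in knockouts), while Alb, the albumin gene, held 0 counts in controls and 5 in knockouts, and Fgb held none. Ttr held 3 counts in controls and 34 in knockouts, Apoa2 7 and 11, and Apoa1 2 and 1. Without the low-count filter 2 hepatocyte markers rose. The summed level of the 6 hepatocyte markers was 0.367 to 0.719 CPM in controls and 1.74 to 4.79 CPM in knockouts. Skeletal muscle markers were at most 1.05 CPM in sum. None of 4 tested erythroid markers was called, although 2 fell without knockout replicate 1. With library totals 6 fibroblast, 6 endothelial, 5 mural, 6 macrophage and 4 erythroid markers rose and none of these lists had a member that fell. The part of any of these in the rise of either gene was not tested.

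Of the receptor pair of GDF15, Gfral was nearly undetected and Ret fell. Gfral held no count in 7 libraries and 4 counts in knockout replicate 1, 0.153 CPM, too few to test. Ret, the kinase that GFRAL needs, fell from 6.11, 4.51, 7.14 and 5.78 CPM in controls to 0.956, 1.74, 1.41 and 0.63 CPM in knockouts (log2 fold change -2.29, SE 0.24, edgeR adjusted p = 3.08e-06). Every knockout lay below every control, as in 21.5% of all genes tested. The convertases went different ways. Pcsk6 fell (-1.33, SE 0.10), and was not called with library totals (-0.32). Furin fell by a smaller amount (-0.39, SE 0.10) and stood at 0.61 with library totals. Pcsk5 rose (0.998, SE 0.21), and Pcsk7 was not called (0.071, SE 0.08; 1.07 and called with library totals). Mmp14, a membrane protease known to cleave GFRAL, rose (0.59, SE 0.13). In all, 2 of 6 tested genes of this group rose and 3 fell, beside 26.1% and 23.9% of all genes. Their median was -0.16 beside -0.01 over all genes.

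Of the FGF21 receptors, Fgfr3 and Fgfr2 rose, while the obligate co-receptor gene stayed near 0 counts. Klb held 3, 0, 2 and 4 counts in controls and 1, 5, 4 and 6 in knockouts, and the related Kl held at most 3 in any library. Fgfr4 held 2 counts in controls and 4 in knockouts. None of these 3 had enough counts to test. Fgfr1, the main receptor of FGF21, was at 12.6 ± 0.622 CPM in controls and 13.4 ± 2.10 CPM in knockouts (SD, n = 4 each) and was not called (0.09, SE 0.11; 1.11 and called with library totals). Fgfr3 rose from 3.63 ± 0.679 to 11.5 ± 1.62 CPM (log2 fold change 1.67, SE 0.14, edgeR adjusted p = 4.09e-07). Fgfr2 rose from a low level (1.72, SE 0.44, adjusted p = 0.00516; 2.41 without control replicate 4, which held 11 of 20 control counts). Fap, whose protease product inactivates FGF21, was not called (-0.27, SE 0.22; 0.74 with library totals).

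**Figure D3:**
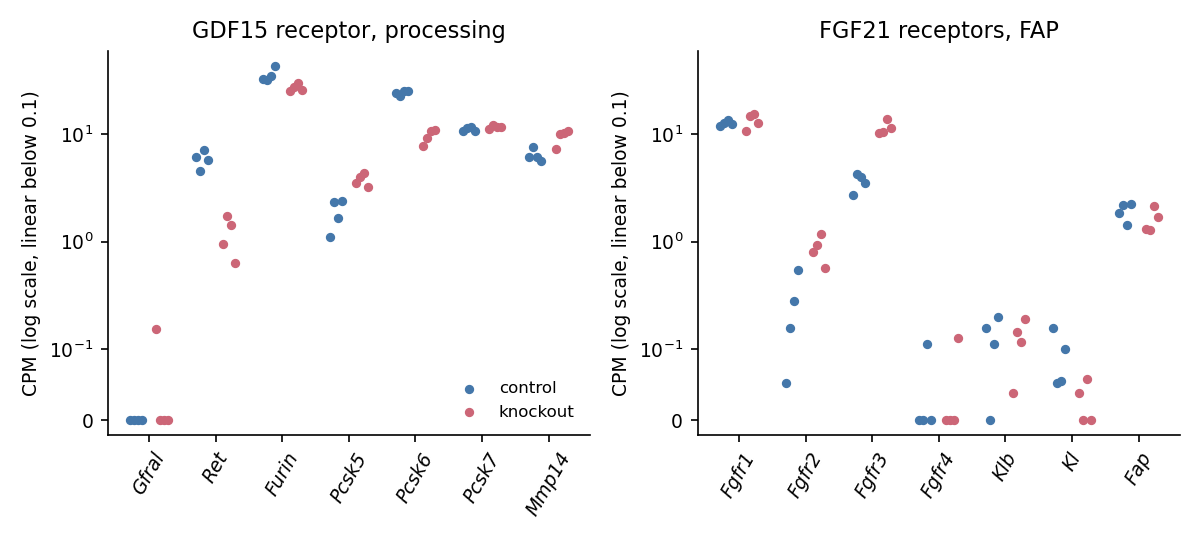
CPM in each library (blue controls, red knockouts) of genes for the receptor and processing of GDF15 (left) and for the receptors and inactivating protease of FGF21 (right), on a log axis that is linear below 0.1. Ret lies lower and Fgfr3 higher in knockouts without overlap, as 21.5% and 23.9% of all genes tested do. Gfral, Fgfr4, Klb and Kl lie at or below 0.199 CPM in every library.

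Both gene families moved in mixed directions apart from the mitokines. Over all genes tested 26.1% rose and 23.9% fell. Of the other 21 FGF genes 10 had enough counts, of which 2 rose and 5 fell (median -0.28). The paracrine heart growth factors Fgf2 (-1.19, SE 0.10; -0.19 and not called with library totals) and Fgf16 (-1.85, SE 0.24) fell. Fgf1, the most abundant at 148 ± 1.70 CPM in controls, fell as well (-0.72, SE 0.08), but stood at 0.26 with library totals. Fgf7 rose (2.82, SE 0.32), as did Fgf6 (1.60, SE 0.48). The other endocrine genes were nearly absent: Fgf15 held no count in any library, and Fgf23 held 0 in controls and 5 in knockouts. Of 13 other GDF, myostatin and TGF-beta genes 6 were tested, and 3 rose, among them Gdf6 (3.31, SE 0.25) and Tgfb2 (2.67, SE 0.27). Gdf11 fell (-0.59, SE 0.21, edgeR adjusted p = 0.0283), a call lost without control replicate 4 (-0.40, adjusted p = 0.127) or without knockout replicate 2 or 3, and its value was 0.41 with library totals.

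Transcription regulators described for either gene rose in 11 of 17 and fell in 4, against 26.1% and 23.9% of all genes. The factors of the stress response led: Atf4 rose from 34.2 ± 2.98 to 216 ± 26.1 CPM (log2 fold change 2.66, SE 0.10, edgeR adjusted p = 2.53e-10), and Atf5 (2.62, SE 0.11), Ddit3, which encodes CHOP (2.40, SE 0.16), and Nupr1 (2.99, SE 0.15) rose likewise. Mlxipl, which encodes the carbohydrate-sensing ChREBP, fell (-2.61, SE 0.17). Ppara, the nuclear receptor that drives hepatic Fgf21 in fasting, fell (-0.91, SE 0.16), but stood at 0.052 with library totals. Tfeb (-0.39, SE 0.09; 0.60 with library totals) and Ppargc1a (-0.39, SE 0.14) fell by less. The call of Ppargc1a was lost without control replicate 1 or 3 or knockout replicate 4 (adjusted p = 0.0571 to 0.0703), and its value was 0.57 with library totals. Trp53, named after its value was seen, was not called (0.23, SE 0.11), but was without control replicate 2 (0.31, adjusted p = 0.0474) and with library totals (1.23). Upstream of ATF4, Dele1 (-0.95, SE 0.08) and Oma1 (-0.50, SE 0.10), the relay from mitochondria, fell, yet stood at 0.039 and 0.49 with library totals. Of the 4 eIF2 kinases Eif2ak1, which that relay activates, rose (0.42, SE 0.08), and the other 3 were not called.

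The metabolic and feedback targets of the stress response rose in 21 of 23, beside 26.1% of all genes, with a median log2 fold change of 3.40. A rise of this list was already known when it was drawn up, so it is no independent evidence. Asns, asparagine synthetase, rose by 6.01 (SE 0.12), Aldh18a1, of proline synthesis, by 3.40 (SE 0.10) and Phgdh, of serine synthesis, by 6.45 (SE 0.23). The fitted rises of Gdf15 and Fgf21 lay near the top of this list, beside Slc7a11 (7.78, SE 0.56) and Mthfd2 (6.55, SE 0.16). No order among them is read from this, since the interval of Gdf15 (6.37 to 8.92) and that of Fgf21 (5.58 to 8.05) span several of these values. The fit of Fgf21 rests on 2 control counts and was 6.44 to 6.46 without control replicate 1, 2 or 4. The lipoprotein receptor gene Vldlr fell (-0.45, SE 0.09; 0.53 with library totals). PPAR-alpha targets rose in 5 of 12 and fell in 5 (median 0.11), beside 26.1% and 23.9% of all genes. Among these targets Acot2 stood at 2.36 (SE 0.09) and Ucp3 at -1.24 (SE 0.17, but -0.28 and not called with library totals). The number that fell was 2 to 3 without control replicate 1, 2 or 3 or knockout replicate 3 or 4. Targets of p53, another known regulator of Gdf15, rose in 8 of 11 and fell in 1 (median 0.66), beside the same shares of all genes. Cdkn1a, the cell cycle inhibitor p21, rose by 2.73 (SE 0.11) and Phlda3 by 2.14 (SE 0.19), whereas Ccng1 fell (-0.66, SE 0.10; 0.31 with library totals).

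Among genes that ERK signalling induces or that feed back on it, 10 of 16 rose and 2 fell (median 0.55), beside 26.1% and 23.9% of all genes. Dusp4, an ERK phosphatase, rose from 1.35 ± 0.255 to 46.9 ± 9.07 CPM (log2 fold change 5.11, SE 0.17, edgeR adjusted p = 5.77e-11). Myc (4.16, SE 0.33), Etv5 (2.24, SE 0.10), Dusp6 (0.81, SE 0.09) and Spry1 (0.61, SE 0.11) rose by less. Fosl1 (-0.82, SE 0.19) and Spred2 (-0.35, SE 0.09) fell, but stood at 0.16 and 0.65 with library totals. Of 20 other secreted factors of heart or stressed cells, 10 of 18 tested rose and 5 fell, beside the same shares of all genes. Nppb, the gene of B-type natriuretic peptide, rose (3.15, SE 0.20), as did Nppa (5.54, SE 0.28). Ostn rose by 8.53 (SE 0.43), a fitted size that rests on 1 control count beside 836 knockout counts. Apln, which encodes apelin, fell (-2.53, SE 0.17). No control count and 587 knockout counts were found for Adm2, a relative of adrenomedullin, which was at least 117-fold higher. Fndc5, the irisin precursor gene, fell (-0.82, SE 0.11; 0.19 with library totals).

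**Figure D4:**
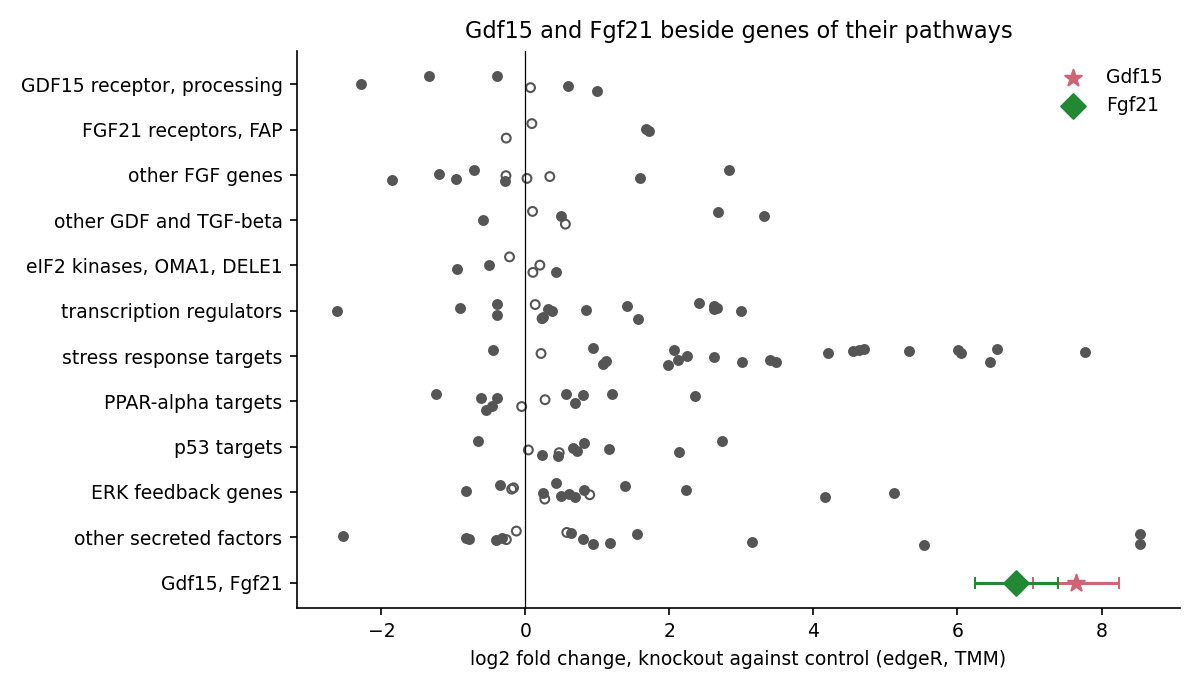
Log2 fold change of each tested gene by list (edgeR with TMM; filled points passed the threshold, open points did not), with Gdf15 (star) and Fgf21 (diamond) and their standard errors at the bottom; Adm2, with no control count, is left out. Values are relative to TMM scaling, and several of the falls turn to rises with library totals. The mitokine genes, at 7.65 and 6.82, lie among the highest stress response targets and secreted factors.

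Among the 5 genes nearest in profile to Gdf15 were 3 of the stress response targets, Slc7a11, Mthfd2 and Trib3. The list of targets was drawn up with its rise known, so their place here is no independent evidence. Likeness was the root mean square difference of log2 CPM over the 8 libraries, each of 12576 protein-coding genes centred on its own mean. It mostly follows the size of the change between groups, so other genes with very large rises come out near. The nearest was Slc7a11, the cystine transporter gene (0.62 log2 units), followed by the cationic amino acid transporter gene Slc7a3 (0.77), Tenm4 (0.80), Mthfd2 (0.85) and Trib3 (0.87). Slc7a11 shared the low knockout replicate 1, at 14.99 CPM against 65.0, 45.4 and 39.4 CPM in replicates 2 to 4. Nearest to Fgf21 were Kcnj4, a potassium channel gene (0.29), Vat1l (0.47), Dlg2 (0.54), Dusp4 (0.54) and Tfcp2l1 (0.54). With the prior count of 2 in these profiles, Fgf21 changed by 4.42 to 5.68 in knockouts, below its fitted 6.82. It is thereby set beside genes with smaller fitted rises, Kcnj4 (6.10), Dlg2 (4.93), Dusp4 (5.11) and Tfcp2l1 (5.41). Vat1l, the other gene of these 5, has no control count from which to fit a size. Kcnj4 held 5 counts in controls and 622 in knockouts, close to the 2 and 454 of Fgf21. Vat1l held none in controls and was at least 68.1-fold higher. Fgf21 was the 14th nearest to Gdf15 (1.16), and Gdf15 the 90th nearest to Fgf21. All these points share the same 8 libraries and their depth, and the places of genes with few counts depend on the prior count.

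Of 11 tested neighbours of the mitokine genes on the chromosome 1 rose and 4 fell, beside 26.1% and 23.9% of all genes, and their changes were smaller than those of Gdf15 and Fgf21. Of 6 genes that start within 50 kb of Gdf15, 5 were tested, of which 1 rose and 1 fell: Lsm4 (0.65, SE 0.10) and Isyna1 (-0.42, SE 0.13). The call of Isyna1 was lost without control replicate 2 (-0.35) or without the low-count filter (-0.37), and its value was 0.56 with library totals. Pgpep1, upstream of Gdf15, was not called (-0.22, SE 0.10), but was without knockout replicate 4 (-0.33) and with the replicate number as a block (-0.22), and stood at 0.79 with library totals. Of 9 genes within 50 kb of Fgf21, 6 were tested, none rose and 3 fell, with Mamstr, a muscle transcription cofactor gene, at -0.89 (SE 0.17; 0.080 with library totals). Bcat2, of branched-chain amino acid breakdown, was not called (-0.06, SE 0.09; 0.92 with library totals). Fut1 encodes a fucosyltransferase, is read away from Fgf21 on the plus strand and starts 1799 bases from its start (45617289 to 45621059). It held 0, 0, 1 and 0 counts in controls and 6, 22, 22 and 18 in knockouts, too few for the filter on low counts. Pooled, its CPM ratio was 40.8, with a 95% counting interval of 7.07 to 1634. Its only control count lay in replicate 3, as did those of Fgf21, and without that library it was at least 10.4-fold higher. Fitted without the filter, its log2 fold change was 4.92 (SE 0.79, edgeR adjusted p = 1.05e-06 over 31307 genes). The low knockout replicate 1 was thus shared by Gdf15, Fgf21 and Fut1.

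**Figure D5:**
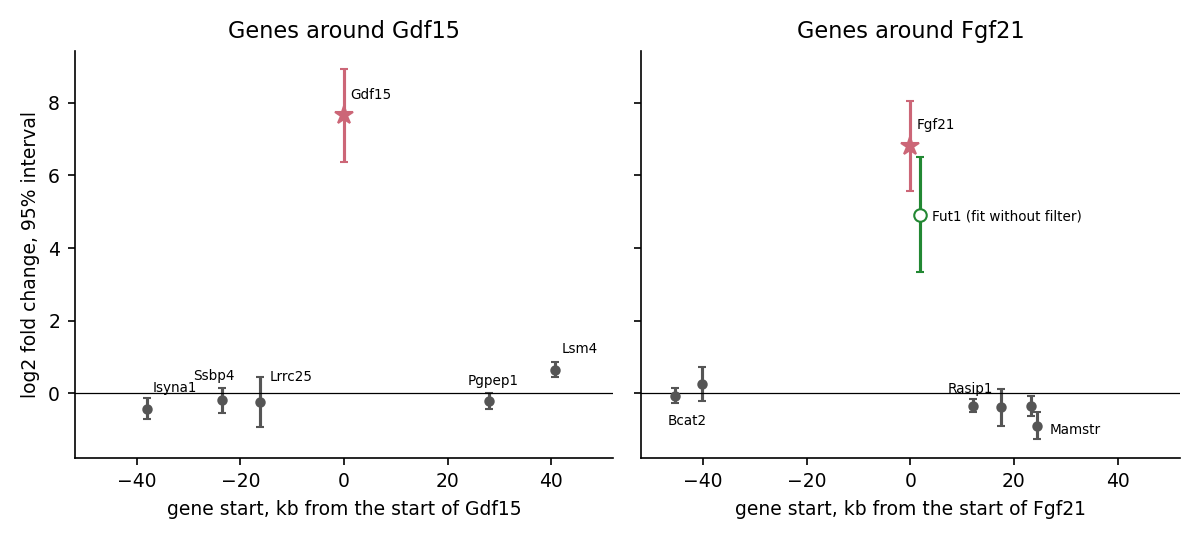
Log2 fold change with 95% interval of genes whose start lies within 50 kb of that of Gdf15 (left) or Fgf21 (right), against the distance in kb; protein-coding genes are labelled, and values are relative to TMM scaling. Fut1 (open green circle, from the fit without the low-count filter) lies at 4.92, and the tested neighbours lie between -0.89 and 0.65.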

How the data were processed

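Total RNA of crude heart mitochondria from 4 control and 4 knockout mice had been extracted with a miRNeasy kit, made into TruSeq libraries and sequenced as paired ends on a MiSeq, per the labels' protocols. Raw counts, deposited per gene by the authors, were the starting point. The submitters' processing notes name DESeq2 1.14.1, R 3.3.2, featureCounts, SAMtools 1.3.1, Bowtie2, bedtools and mm10 without role or order, and strand handling was not stated in the labels. The authors' deposited table holds log2 fold changes with standard errors and adjusted p-values.

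Counts were tested here with edgeR 4.0.16 in R 4.3.3 (quasi-likelihood F test, TMM, low counts removed by filterByExpr at 10, genotype factor, two-sided, Benjamini-Hochberg at 0.05). SE was derived from F as the log2 fold change divided by its square root. Log2 CPM had a prior count of 2. Library totals of 21108165 to 27403415 counts set the precision, with a biological coefficient of variation of 11.3%. Intervals and floors of 3 counts cover counting error only, because reads lacked molecular identifiers. On counts simulated with these library totals (50 genes changed at each fold, 16791 tested), 76% of 1.5-fold changes were recovered and 100% of changes of 2-fold, 4-fold or 8-fold, and 9 of 197 calls were false. The simulation gave all genes the same biological variation, changed only genes averaging over 50 counts and had no mtDNA shift. These rates thus do not cover genes with few counts or a wide spread, or data with as many changed genes as here. Lengths and positions are from GENCODE M21, and promoters from RefSeq (GRCm38.p6) by symbol, with both genes matched. Dele1 was matched through its older symbol.

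The genes, the lists and the tests were chosen with earlier results of these data known. Named genes were Gdf15, Fgf21, detected receptor and processing genes, up to 5 called members of each other list by smallest p with those that moved against it, neighbours within 50 kb and the 5 nearest profiles. Alternatives were DESeq2 1.42.0, RLE factors, library totals, no filter, nuclear genes alone, a replicate block, fits without 1 library each and other added counts. Figures were drawn with matplotlib 3.10.9.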

Additional observations from a re-analysis of the deposited data

Results flagged for a closer look

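Fgf21 in control replicate 3 stood at 0.111 CPM, from 2 counts, while the other controls held none. With 3 libraries at 0 that gap equals the whole range by construction, so this case says nothing about the library. Myc in knockout replicate 1 was at 5.62 CPM, against 11.5 to 12.6 CPM in the other knockouts. Gdf11 in control replicate 4 was at 2.84 CPM, against 1.77 to 1.94 CPM, and Lsm4 in control replicate 4 at 6.23 CPM, against 7.30 to 7.49 CPM. In each the gap to the nearest library, as a share of the group's range, exceeded the 95% critical value of Dixon's test for 4 samples. Of 133 groups of 4 libraries examined 4 did so, and chance alone is set to pass about 1 in 20. Gdf15 in knockout replicate 1 did not exceed it in CPM (share 0.787). Gdf15 was not examined this way on the log2 scale. There its change was 5.48 in knockout replicate 1 against 7.68 to 7.95 in the other knockouts.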

How the results depend on the processing

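Gdf15 and Fgf21 stayed higher and past the threshold under all 14 alternatives, with log2 fold changes of 7.41 to 8.73 (adjusted p = 3.29e-32 to 3.37e-06) and 6.44 to 9.54 (4.69e-18 to 9.53e-06). DESeq2 gave 7.64 and 7.05. The log2 ratio of Gdf15 to Fgf21 passed at 2.36 with 2 added to each count, turned to -0.73 with 0.1 added, and ran from 0.60 to 1.32 when 1 library was left out; sign flips within replicate numbers as a block gave p = 0.25 by exact permutation, where 0.125 is the smallest possible.

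With library totals as the only scaling, counts of list members moved by over 1.5 times: 4 rose and 1 fell on the GDF15 receptor and processing side, 4 rose on the FGF21 side, 1 regulator fell, 5 genes upstream of ATF4 rose and 0 fell, 6 FGF genes rose and 1 fell, 5 GDF and TGF-beta genes rose and 0 fell, 9 PPAR-alpha targets rose and 0 fell, 1 secreted factor fell, and 0 ERK genes, 0 stress response targets and 0 p53 targets fell. Counts of cell type markers moved as well, as given beside them. With that scaling these named genes changed sign: Furin 0.61, Fap 0.74, Spred2 0.65, Fosl1 0.16, Ppara 0.052, Ppargc1a 0.57, Tfeb 0.60, Oma1 0.49, Dele1 0.039, Vldlr 0.53, Fgf1 0.26, Gdf11 0.41, Ccng1 0.31, Fndc5 0.19, Bcat2 0.92, Rasip1 0.66, Mamstr 0.080, Isyna1 0.56 and Pgpep1 0.79. Bcat2 ran from -0.128 to 0.016 when 1 library was left out, turning without knockout replicate 3. Library totals raised the median log2 fold change of all genes by 0.99, and the causes of the separate changes were not tested. Leaving out 1 library gave 0 to 1 GDF and TGF-beta genes and 2 to 5 PPAR-alpha targets that fell.

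Replicate numbers share no animal, and deviations from the group means of same-numbered libraries correlated at -0.0136 to 0.0497, so they were not taken as pairs. The replicate block gave Gdf15 7.61 (SE 0.22) and Fgf21 6.81 (SE 0.44) and changed no count of a pathway list by over 1.5 times and, of the named genes, the call of Pgpep1 alone (-0.22). Of fibroblast markers 1 rose with it. Depth limits Gfral, Klb, Kl, Fgfr4 and Fut1, and Fgf21 in controls.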
